A study of Mus musculus with 4 samples.

Results

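The genes described here encode extracellular matrix and matricellular proteins of recruited renin cells. They were taken by symbol from a list of 51 genes, and all 51 were found among the 32647 gene symbols of the table. By role, 17 encode basement membrane proteins, 13 encode interstitial collagens and their partners, 5 belong to the elastic fibre, 1 (Col8a1) to the network collagen of the vessel wall, 9 are matricellular or mineral-binding, and 6 are matrix enzymes or their inhibitors. No measured value of these libraries enters the rule of the list, but its genes were chosen with earlier results of these data known.

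There is 1 condition, with 4 libraries: 2 mice with 2 technical replicates each. The mice were adult C57BL/6 animals with the Ren1c-YFP transgene, a yellow fluorescent reporter under control of the renin promoter. Both received a low salt diet and captopril, an inhibitor of the enzyme that makes angiotensin II, at 0.5 g/L in their drinking water for 1 week, which recruits more cells to renin synthesis. Cells of the kidney cortex were dispersed with collagenase and trypsin and sorted on the reporter, so that a cell entered a library by a readout of its renin promoter. Untreated mice and cells without the reporter are not analysed here, and nothing below shows a change with captopril. RNA was measured, and the protein laid down around the cells was not.

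A basement membrane is a thin sheet of matrix built from a laminin network and a type IV collagen network, which nidogens and heparan sulphate proteoglycans hold together. Smooth muscle cells, pericytes and renin cells are each wrapped in one, and endothelial and epithelial cells rest on one. Interstitial matrix is the looser and stronger material between cells, with fibrillar collagens of types I, III and V, small proteoglycans, fibronectin and, in arteries, elastic fibres. Matricellular proteins sit in the matrix without carrying load and change how cells attach, migrate or mineralise. Renin cells of the adult kidney sit in the wall of the afferent arteriole and share much of their programme with its smooth muscle.

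Values are TPM, a measure of transcript abundance that allows for transcript length and gives each library an equal total. The values of a gene are given in a fixed order: mouse 1 technical replicate 1, mouse 1 technical replicate 2, mouse 2 technical replicate 1 and mouse 2 technical replicate 2. The level of a gene was averaged first over the technical replicates of each mouse and then over both mice, and is printed with the SD over mice (n = 2). A gene is called present where it reached 1 TPM in every library. With 1 condition and 2 mice no test between groups was possible, and the differences below are descriptions.

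Estimated counts totalled 19871382 to 47471036 per library, and 6405 to 8709 genes reached 1 TPM. Mitochondrial transcripts took 9.26% to 25.9% of TPM, the highest share being in mouse 2 technical replicate 1. Renin cell markers were abundant: Ren1, which encodes renin, stood at 29637, 28674, 21904 and 15933 TPM, both renin cell markers were present, and so were 6 of 6 smooth muscle and 5 of 8 mesangial and pericyte markers. Markers of other cells were present as well, with 9 of 14 for proximal tubule, 8 of 12 for loop, distal tubule and collecting duct, 2 of 12 for endothelium, 1 of 8 for podocytes, 2 of 14 for leukocytes and 0 of 7 for fibroblasts. The 14 proximal tubule markers summed to 1308, 1178, 1923 and 13977 TPM, beside 3688, 2309, 2570 and 2599 TPM for the 6 smooth muscle markers. Kap, a proximal tubule marker, alone stood at 55.5, 19.8, 1236 and 11140 TPM. The libraries thus also held tubular transcripts, most in mouse 2 technical replicate 2, and the part of tubular cells in the matrix values was not tested. The libraries were amplified from a small pool of cells, and many genes seen in one technical replicate were nearly missing from the other. A gene at 10 TPM or more in at least one technical replicate was under 0.5 TPM in its partner in 21% of cases for mouse 1 and in 30.3% for mouse 2. Among the matrix genes that count was 3 of 23 in mouse 1 (Agrn, Timp1 and Mmp2) and 1 of 17 in mouse 2 (Fn1).

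Of the 51 matrix genes, 19 (37.3%) were present, against 9.74% of all rows of the table. All rows include 13418 at 0 TPM in every library, and of the 19229 above 0 TPM in some library 16.5% were present. In at least 1 library 41 of the 51 reached 1 TPM, against 37.7% of all rows. The remaining 10 stayed below 1 TPM in every library: Col15a1 and Lama2 of the basement membrane, Col6a1, Col6a2, Col6a3, Dcn and Lum of the interstitial list, Fbln1 and Fbln2 of the elastic fibre, and Postn. Lum, which encodes the collagen-binding proteoglycan lumican, was listed at 0 TPM in all 4 libraries. Because these are bulk samples, fewer cells that use a gene and less RNA per cell cannot be told apart. By library, 34, 31, 24 and 30 of the matrix genes reached 1 TPM.

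The roles differed in how often their genes were present. Of the matricellular and mineral-binding genes 7 of 9 were present, of the basement membrane genes 7 of 17, of the enzymes and inhibitors 2 of 6, of the interstitial collagens and partners 2 of 13, and of the elastic fibre genes 1 of 5. Together the 51 genes took 1.46%, 1.39%, 0.782% and 0.927% of all TPM. A single gene, Mgp, made up 86.9%, 92.1%, 50.0% and 81.3% of that share. Without Mgp, the summed TPM of the other 50 genes was 1913, 1091, 3911 and 1734.

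**Figure D1:**
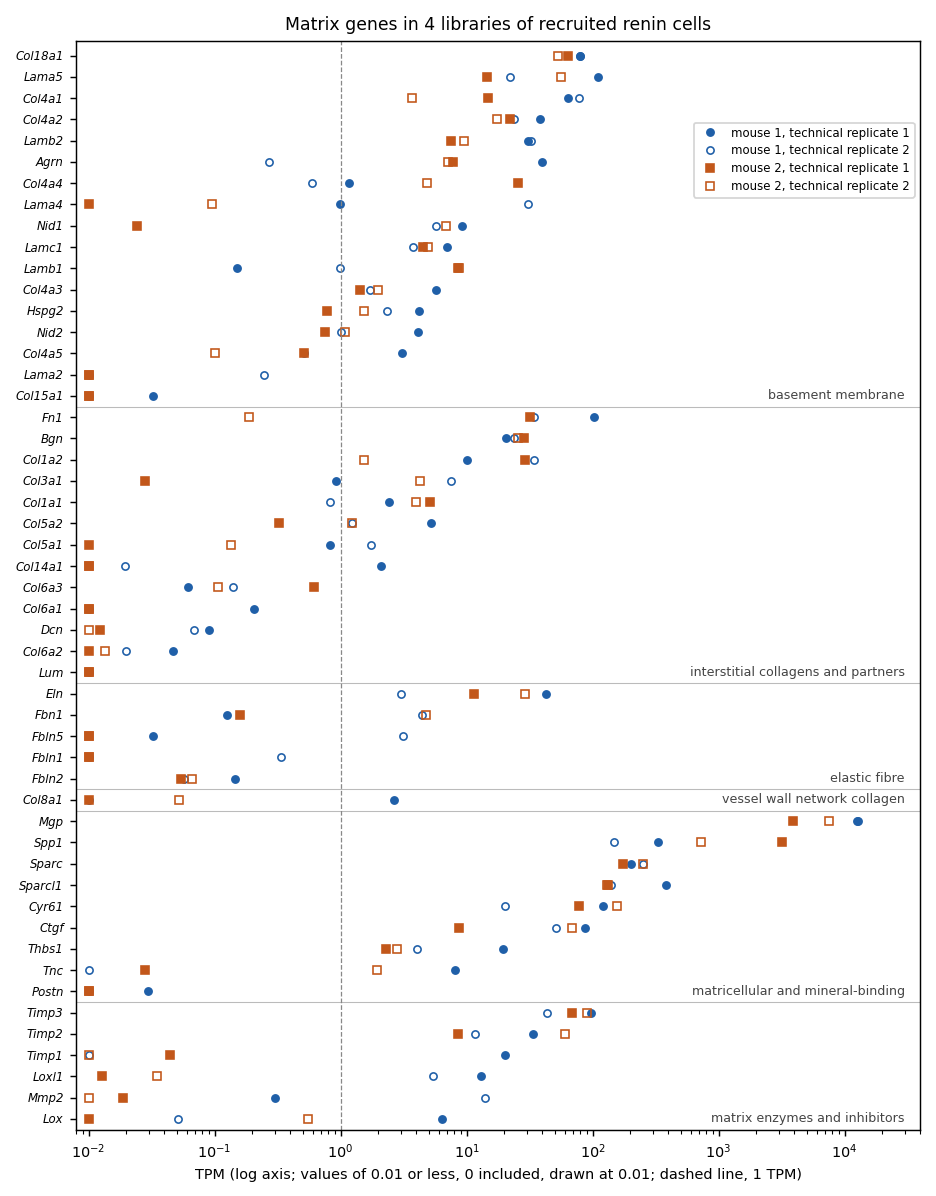
TPM of the 51 matrix genes in each of the 4 libraries, on a log axis, grouped by role and ordered within a role by level; circles are mouse 1, squares mouse 2, filled symbols technical replicate 1 and open symbols technical replicate 2, and values of 0.01 TPM or less are drawn at 0.01. Mgp lies between 3911 and 12795 TPM, to the right of every other point, the 7 present matricellular genes keep all 4 points right of the dashed line at 1 TPM, and many collagen genes have points on both sides of it.

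Mgp encodes matrix Gla protein, a small secreted protein of vascular smooth muscle and cartilage that binds calcium and holds back calcification of the artery wall. Its TPM was 12651, 12795, 3911 and 7541, a level of 9224 ± 4948 TPM. Both libraries of mouse 1 lay above both of mouse 2, by less than the 4-fold set for a call. By level it ranked 13 among all genes of the table and 7 when mitochondrial genes were left out. The 5 genes nearest to it in log2(TPM + 1) over the 4 libraries, by Euclidean distance, were Myl6, Crip1, Cox6c, Cox4i1 and Fth1. Myl6, a myosin light chain of smooth muscle and other cells, stood at 12990, 9683, 4201 and 6637 TPM with a distance of 0.46, and Crip1, a LIM domain protein, at 17235, 15592, 3913 and 6634 TPM with a distance of 0.56. Both shared the higher values of mouse 1, while the other 3 genes lay between 3740 and 7119 TPM in all libraries.

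Spp1 encodes osteopontin, a phosphorylated glycoprotein that binds integrins and, in kidney, is made chiefly by epithelium of the loop and distal nephron. It was the second most abundant of the 51 genes, at 333, 149, 3160 and 723 TPM, a level of 1091 ± 1202 TPM. Both libraries of mouse 2 were above both of mouse 1, and technical replicate 1 of mouse 2 was above all others. Tubular transcripts were also higher in both libraries of mouse 2. Umod, which encodes uromodulin of the thick ascending limb, stood at 44.4, 143, 843 and 615 TPM. The summed TPM of the 12 markers of loop, distal tubule and collecting duct was 146, 352, 1869 and 1733. In that list Pvalb was at 0 TPM in 3 libraries and the other 11 markers were above 0 TPM in every library. Their part in the Spp1 values was not tested.

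Sparc, Sparcl1, Cyr61 and Ctgf complete the abundant matricellular genes. Sparc encodes osteonectin, a collagen-binding protein that binds calcium, and its 4 libraries were close together at 200, 253, 173 and 253 TPM, a level of 220 ± 9.42 TPM. Sparcl1, its relative hevin, was at 385, 141, 133 and 131 TPM, a level of 197 ± 93.0 TPM. Technical replicate 1 of mouse 1 stood apart from the other 3, which were nearly equal, and the ranges of Sparc and Sparcl1 overlapped. Thbs1 (thrombospondin 1, which binds CD36, CD47 and latent TGF-beta) was present at a lower level, 19.6, 4.01, 2.30 and 2.81 TPM. Tnc (tenascin C) reached 1 TPM in 2 libraries, and Postn (periostin), at 0.0294 TPM in 1 library and 0 in the others, in none.

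Cyr61 and Ctgf, also named Ccn1 and Ccn2, are cysteine-rich integrin ligands that are known as rapid targets of YAP and TEAD factors and of mechanical stretch. Cyr61 stood at 121, 20.0, 78.0 and 156 TPM, a level of 93.7 ± 32.6 TPM. Ctgf stood at 87.9, 51.1, 8.66 and 68.2 TPM, a level of 54.0 ± 22.0 TPM. Both genes were present in all libraries, but they did not keep a constant ratio to each other: Ctgf divided by Cyr61 was 0.725, 2.55, 0.111 and 0.439. The lowest Cyr61 value was in mouse 1 technical replicate 2 and the lowest Ctgf value in mouse 2 technical replicate 1.

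Promoter sequences from RefSeq on build GRCm38.p6 were available for 33 of the 51 genes; for Mgp, Ctgf, Sparcl1 and Col1a1 none was used. The 250 bases before the start of Cyr61 and Spp1 are shown, 5′ to 3′ in the direction of the gene, because Cyr61 was present in both mice and is a known target of stretch, and Spp1 was the most abundant gene called between them; neither window overlaps an annotated exon. Capitals mark a match on either strand to the letters TATAAA (the usual TATA box), GGGCGG (the GC box bound by Sp1), CCAAT (bound by NF-Y), GGAATG (the core of TEAD sites) or TGGGAA (the core of RBP-J sites), or to a CArG box (bound by serum response factor). The window of Cyr61 is chr3:145649986-145650235 on the minus strand, and that of Spp1 is chr5:104434861-104435110 on the plus strand.
Cyr61: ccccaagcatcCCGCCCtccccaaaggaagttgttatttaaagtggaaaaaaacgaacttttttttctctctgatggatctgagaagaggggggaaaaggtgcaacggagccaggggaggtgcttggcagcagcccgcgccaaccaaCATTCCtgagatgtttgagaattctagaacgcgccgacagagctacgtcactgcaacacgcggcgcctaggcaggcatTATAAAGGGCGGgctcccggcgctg
Spp1: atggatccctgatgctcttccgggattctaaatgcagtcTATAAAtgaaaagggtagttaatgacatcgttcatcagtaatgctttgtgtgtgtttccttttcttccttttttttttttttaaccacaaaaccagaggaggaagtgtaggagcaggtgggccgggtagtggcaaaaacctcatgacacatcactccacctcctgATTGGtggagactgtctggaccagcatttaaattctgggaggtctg

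The Cyr61 window holds a TATA box that begins 25 bases before the start, a GC box directly after it at 19 bases and another at 239 bases, and a TEAD core on the other strand at 103 bases. The Spp1 window holds a TATAAA far upstream at 211 bases and a CCAAT box on the other strand at 46 bases. In neither window do the capitals of different motifs overlap. Over all 32851 RefSeq promoter windows of the same length, 12.4% held TATAAA, 32.7% GGGCGG, 33.8% CCAAT, 12.6% GGAATG, 21.6% TGGGAA and 1.47% a CArG box. Among the 33 matrix genes, 5 held TATAAA, 22 GGGCGG, 11 CCAAT, 6 GGAATG and 11 TGGGAA, and 1 (Lama2) held a CArG box. These are counts of genes, of which some have more than 1 window; of the 41 windows of these genes 6 held TATAAA, 25 GGGCGG, 11 CCAAT, 6 GGAATG, 12 TGGGAA and 1 a CArG box, which compares with the shares above. These are matches of letters and not measured binding sites.

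The basement membrane genes were led by Col18a1, Lama5, Col4a1 and Col4a2. Col18a1, which encodes collagen XVIII, a basement membrane collagen with heparan sulphate chains from which endostatin is cleaved, stood at 79.0, 79.9, 63.4 and 53.0 TPM, a level of 68.8 ± 15.0 TPM. Its 4 libraries lay within a factor of 1.51. Its relative Col15a1 was at 0.0327 and 0.00608 TPM in mouse 1 and at 0 in both libraries of mouse 2. Expressed per length of the longest coding transcript, as explained further on, Col18a1 was at 45.0, 49.4, 34.7 and 36.7 TPM.

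Type IV collagen is made as trimers of which the chains alpha1 and alpha2, from Col4a1 and Col4a2, are used in nearly every basement membrane, and the chains alpha3, alpha4 and alpha5 in the mature glomerular one. Col4a1 stood at 63.3, 78.5, 14.8 and 3.72 TPM, a level of 40.1 ± 43.6 TPM, and both libraries of mouse 1 were above both of mouse 2. Col4a2 stood at 38.1, 23.6, 22.0 and 17.5 TPM, a level of 25.3 ± 7.89 TPM, and here the lower library of mouse 1 was close to the higher of mouse 2. The ratio of Col4a1 to Col4a2 was thus 1.66 and 3.32 in mouse 1 and 0.673 and 0.213 in mouse 2. The genes lie head to head on chromosome 8 in GENCODE M21 (GRCm38): Col4a1 starts at 11312826 on the minus strand and Col4a2 at 11312805 on the plus strand, so their first exons overlap by 22 bases.

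Col4a3 and Col4a4 were lower. Col4a3 was present, at 5.70, 1.71, 1.42 and 1.98 TPM, and Col4a4 stood at 1.18, 0.597, 25.5 and 4.82 TPM, with both libraries of mouse 2 above both of mouse 1. Their ratio was 4.85 and 2.86 in mouse 1 and 0.0555 and 0.410 in mouse 2. The length assigned to Col4a3 varied widely between libraries, and per length of the longest coding transcript, an alternative explained further on, Col4a3 stood at 7.26, 0.308, 0.194 and 0.399 TPM and was no longer present. The ratio was then 4.93, 0.398, 0.00696 and 0.0633, below 1 in a library of mouse 1 as well. Col4a5 reached 1 TPM in 1 library, at 3.07, 0.510, 0.516 and 0.10 TPM. Podocytes are the known source of these chains in the glomerulus. Of 8 of their markers only Synpo, which smooth muscle can also express, was present, while Nphs1 (nephrin) stood at 0.958, 0.0919, 0.175 and 0.00775 TPM. The summed TPM of these 8 was 65.5, 30.6, 111 and 10.5, highest in the library with the most Col4a4, and its part in that value was not tested.

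Col4a3 and Col4a4 also start head to head, on chromosome 1, with 71 bases between their annotated starts at 82586921 and 82586849. The stretch chr1:82586850-82586920 is shown from the minus strand, in the direction of Col4a4, because both genes are read outwards from it while their TPM did not follow each other; it is 69.0% G or C and holds none of the motifs above, so it has no capitals.
Col4a4 to Col4a3: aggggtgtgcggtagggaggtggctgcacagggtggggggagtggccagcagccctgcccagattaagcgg

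Laminins are trimers of an alpha, a beta and a gamma chain, and trimers with the alpha5 or alpha4 chain are the usual ones of vessel walls. Lama5, for the alpha5 chain, was second in level at 110, 22.0, 14.5 and 55.9 TPM (50.5 ± 21.6 TPM), and the mice overlapped. Lama4 was at 0.988, 30.6, 0 and 0.0959 TPM, so that nearly all of its level came from 1 library. Lama2, the alpha chain of skeletal muscle and nerve, was below 1 TPM throughout.

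The beta chains differed between the mice. Lamb2, the beta2 chain of arterial and glomerular basement membranes, stood at 30.8, 32.6, 7.48 and 9.57 TPM and was present. Lamb1, the beta1 chain, stood at 0.152, 0.984, 8.48 and 8.67 TPM. In mouse 1 Lamb1 was therefore 0.00492 and 0.0302 of Lamb2, and in mouse 2 it was 1.13 and 0.905 of it. Technical replicates were close for both genes in mouse 2 and for Lamb2 in mouse 1, where those of Lamb1 were further apart. Lamc1, for the gamma1 chain that most trimers contain, was present at 7.01, 3.74, 4.49 and 4.96 TPM (5.05 ± 0.461 TPM), but per length of the longest coding transcript it was at 7.50, 0.993, 4.34 and 1.22 TPM and no longer present.

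The linkers of the networks were mostly lower than Col4a1 and Col4a2 by level, though not in every library. Nid1 (nidogen 1) stood at 9.22, 5.70, 0.0241 and 6.81 TPM and Nid2 at 4.11, 1.01, 0.750 and 1.09 TPM, and Nid1 was the higher of the pair in 3 libraries. Hspg2, for perlecan, ranged from 0.783 to 4.19 TPM. Agrn, for agrin, was at 40.0, 0.272, 7.78 and 7.08 TPM. Its technical replicates were far apart in mouse 1 and nearly equal in mouse 2. In mouse 2 technical replicate 2 both Nid1 and Agrn were above Col4a1.

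**Figure D2:**
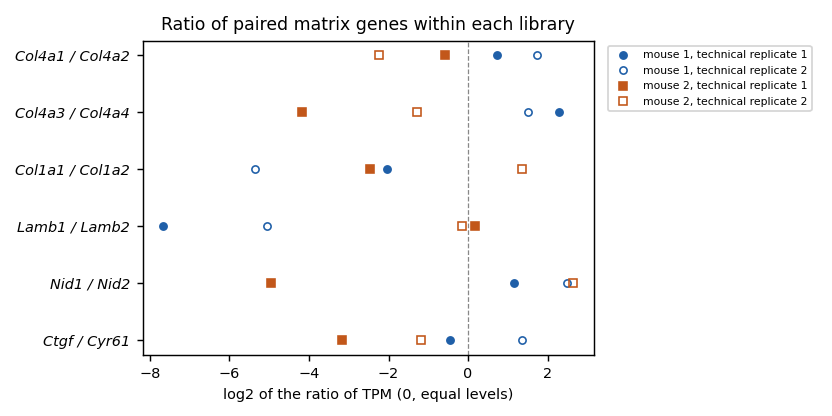
Log2 of the ratio of the TPM of 6 pairs of related matrix genes, within each of the 4 libraries; circles are mouse 1, squares mouse 2, filled symbols technical replicate 1 and open symbols technical replicate 2, and 0 stands for equal levels. Col4a1/Col4a2 and Col4a3/Col4a4 are above 0 in both libraries of mouse 1 and below 0 in both of mouse 2 (for Col4a3/Col4a4 not when reads are divided by the length of the longest coding transcript), Lamb1/Lamb2 lies far to the left in mouse 1, where the ratio was 0.00492 and 0.0302, and no other pair drawn has both points of one mouse above 0 and both of the other below; Col6a1/Col6a2, with values of 0, is not drawn.

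Among interstitial genes, Fn1, Bgn and Col1a2 led. Fn1 encodes fibronectin, the adhesive glycoprotein on which fibrils are assembled, and stood at 102, 34.2, 32.1 and 0.186 TPM, a level of 42.1 ± 36.7 TPM. The estimated counts behind these values were 9435, 5479, 5025 and 40.0, so the technical replicates of mouse 2 disagreed widely. Bgn, for the small proteoglycan biglycan, was the steadiest of the list at 20.5, 23.9, 28.4 and 25.4 TPM (24.6 ± 3.32 TPM), within a factor of 1.39.

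Type I collagen has 2 alpha1 chains, from Col1a1, for each alpha2 chain, from Col1a2. Col1a2 was present at 10.0, 34.1, 28.8 and 1.53 TPM (18.6 ± 4.85 TPM). Col1a1 stood at 2.42, 0.825, 5.17 and 3.94 TPM (3.09 ± 2.07 TPM), and so was lower than Col1a2 in 3 of the 4 libraries, with ratios of 0.242, 0.0242, 0.179 and 2.58. Col3a1, the type III collagen of arteries and other stretchable tissue, was at 0.922, 7.54, 0.0282 and 4.24 TPM. Col5a2, a chain that starts type I fibrils, reached 1 TPM in 3 libraries and its partner Col5a1 in 1.

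Beaded-filament type VI collagen was close to absent. Col6a1 was at 0.204 TPM in 1 library, from 3 estimated counts, and at 0 in the other 3, Col6a2 was at 0.0467 TPM or less, and Col6a3 at 0.0616, 0.140, 0.621 and 0.107 TPM. Dcn, for decorin, was at 0.0909 TPM or less. Decorin, lumican and type VI collagen are abundant products of fibroblasts, and the 7 fibroblast markers summed to 21.4, 0.80, 0.599 and 0.463 TPM. Pdgfra alone gave 20.5 TPM of the first value, the other 6 were below 1 TPM in every library, and Dpt was at 0 in all 4. The part of fibroblast number in the low values of these matrix genes was not tested.

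In the elastic fibre list, Eln was present and the rest were not. Eln encodes tropoelastin, the stretchable core of the fibre, at 42.7, 3.04, 11.4 and 29.0 TPM (21.5 ± 1.90 TPM); the small SD over mice hides technical replicates that were far apart within each mouse. Fbn1, for the microfibril protein fibrillin 1, stood at 0.126, 4.40, 0.159 and 4.79 TPM, high in technical replicate 2 and low in technical replicate 1 of both mice. Fbln5, needed for fibre assembly in mice, was at 3.14 TPM in mouse 1 technical replicate 2 and at 0.0327 TPM or less in the others. Fbln1 was at 0.338 TPM in that library and 0 elsewhere, and Fbln2 was between 0.0546 and 0.146 TPM. Col8a1, the short-chain collagen that smooth muscle and endothelium make in injured vessels, was at 2.68, 0, 0 and 0.0522 TPM.

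Basement membrane was then compared with interstitial matrix, which here takes the 13 interstitial and the 5 elastic fibre genes together. Basement membrane genes were the higher in every library by each of the 3 measures. The median TPM of the 17 basement membrane genes was 5.70, 2.33, 4.49 and 4.82, and that of the 18 interstitial genes 0.515, 1.03, 0.0414 and 0.121. In log2(TPM + 1) the medians differed by 2.18, 0.72, 2.40 and 2.38, and on levels by 1.89. Mouse 1 technical replicate 2 had the smallest difference, with the lowest basement membrane median and the highest interstitial one. Over all rows of the table the median level was 0.0310 TPM.

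The sums gave the same order with a smaller spread. Basement membrane genes summed to 396, 284, 172 and 177 TPM (257 ± 117 TPM) and interstitial genes to 187, 115, 107 and 70.6 TPM (120 ± 44.0 TPM), a ratio of 2.12, 2.48, 1.60 and 2.50. Of the basement membrane genes 13, 11, 10 and 13 reached 1 TPM, and of the interstitial genes 7, 9, 5 and 7. Both sums were higher in mouse 1 than in mouse 2. A few genes made most of each sum: Fn1 alone was 54.4% of the interstitial sum in mouse 1 technical replicate 1, and Lama5 was 27.6% of the basement membrane sum there.

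**Figure D3:**
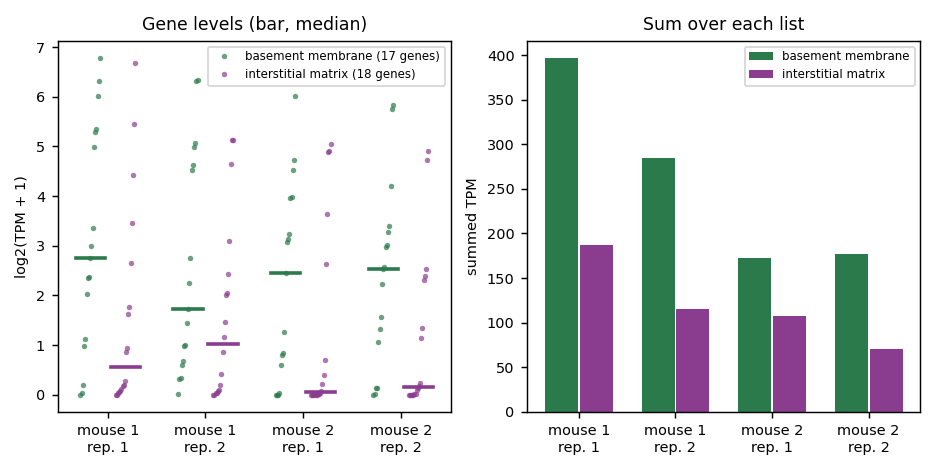
Basement membrane (17 genes) and interstitial matrix (18 genes) in each of the 4 libraries: on the left log2(TPM + 1) of every gene, with a bar at the median, and on the right the summed TPM of each list. The median bars are 2.18, 0.72, 2.40 and 2.38 apart, closest in mouse 1 replicate 2, and the basement membrane sum is the taller bar in all 4 libraries.

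Of the enzymes and inhibitors, only Timp3 and Timp2 were present. Timp3, the inhibitor of metalloproteinases that is bound to the matrix, stood at 98.0, 43.2, 68.1 and 90.6 TPM (75.0 ± 6.16 TPM), and the mice overlapped. Its exons share 21.3% of their bases with Syn3 on the opposite strand, which stood at 4.22, 0.813, 0.571 and 0.503 TPM; the use of strand in quantification is not stated in the sources read. Timp2, the inhibitor that also takes part in the activation of pro-MMP2, was at 33.6, 11.6, 8.57 and 60.2 TPM (28.5 ± 8.31 TPM).

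The other 4 were present in only some libraries. Timp1 was at 20.0 TPM in mouse 1 technical replicate 1 and at 0.0444 TPM or less in the others. Mmp2, the gelatinase that cleaves type IV collagen, was at 0.299, 14.0, 0.0189 and 0 TPM. The lysyl oxidases crosslink collagen and elastin: Loxl1 stood at 12.9, 5.45, 0.0129 and 0.0352 TPM, so that it was found in both libraries of mouse 1 and nearly missing from both of mouse 2, and Lox stood at 6.42, 0.0510, 0.00364 and 0.553 TPM.

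To call a gene different between the mice, the ranges of their libraries had to be separate and their mean TPM + 1 had to differ by 4-fold or more. By that rule 5 of the 51 genes were higher in mouse 1 (Col4a1, Lama4, Fn1, Mmp2 and Loxl1), beside 4.06% of all rows. In mouse 2, 3 were higher (Col4a4, Lamb1 and Spp1), beside 2.43%. A row below 1 TPM in every library, as 20346 of the 32647 were, cannot meet this rule. All calls, 1327 rows for mouse 1 and 793 for mouse 2, therefore lie among the 12301 rows that reached 1 TPM in some library. Of the matrix genes 41 did so, and the shares over all rows understate the background for them. The means in mouse 1 and mouse 2 were 70.9 and 9.26 TPM for Col4a1, 9.18 and 0.0241 TPM for Loxl1, 0.568 and 8.57 TPM for Lamb1, and 241 and 1941 TPM for Spp1. Only Col4a1, Loxl1 and Lamb1 kept their call whichever single library was left out. Lama4 and Mmp2 lost it without technical replicate 2 of mouse 1, Fn1 without technical replicate 1 of mouse 1 or technical replicate 2 of mouse 2, and Col4a4 and Spp1 without technical replicate 1 of mouse 2. Fn1 also lost it when TPM were rescaled without mitochondrial genes, and Lama4 when reads were divided by the length of the longest coding transcript. The mice also differed in the depth of their libraries, in mitochondrial share and in the tubular markers above, and 2 mice of the same treatment cannot separate these from the animal.

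TPM divides reads by the length that the quantification assigned to a gene in that library, weighted by the transcripts it found, and for some large matrix genes this length was far from that of the main transcript. In Lama5 it was 438 to 575 bases, against 11388 for the longest coding transcript in GENCODE M21, or 3.84% to 5.05% of it. For the 19 present matrix genes the length was a median of 49.7% of the longest coding transcript, and the same median was 50.96% over the 2976 coding genes present in every library. Other members with short or unsteady lengths were Lama4 (7.80% to 26.3%), Col4a3 (8.41% to 81.5%), Lamc1 (14.9% to 68.5%) and Agrn (20.5% to 26.8%).

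When the same reads were divided by the length of the longest coding transcript, an alternative chosen after seeing the data, Lama5 came to 8.64, 1.41, 0.993 and 3.55 TPM. Its estimated counts were 1752, 609, 393 and 2070, lower than the 5531, 11845 and 2183 of Col4a1 in the first 3 libraries. Its place as second among basement membrane genes therefore rests on short transcript models. Lama5, Lamc1 and Col4a3 were the genes that lost their presence in every library under this alternative. Under this alternative the medians of basement membrane and interstitial genes differed by 2.57, 0.16, 0.96 and 1.65 in log2(TPM + 1), and the sums were 181, 153, 104 and 94.2 TPM against 118, 92.5, 77.3 and 62.3 TPM. Basement membrane thus stayed the higher list in every library, by less in 3 of the 4 medians and in all sums.

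**Figure D4:**
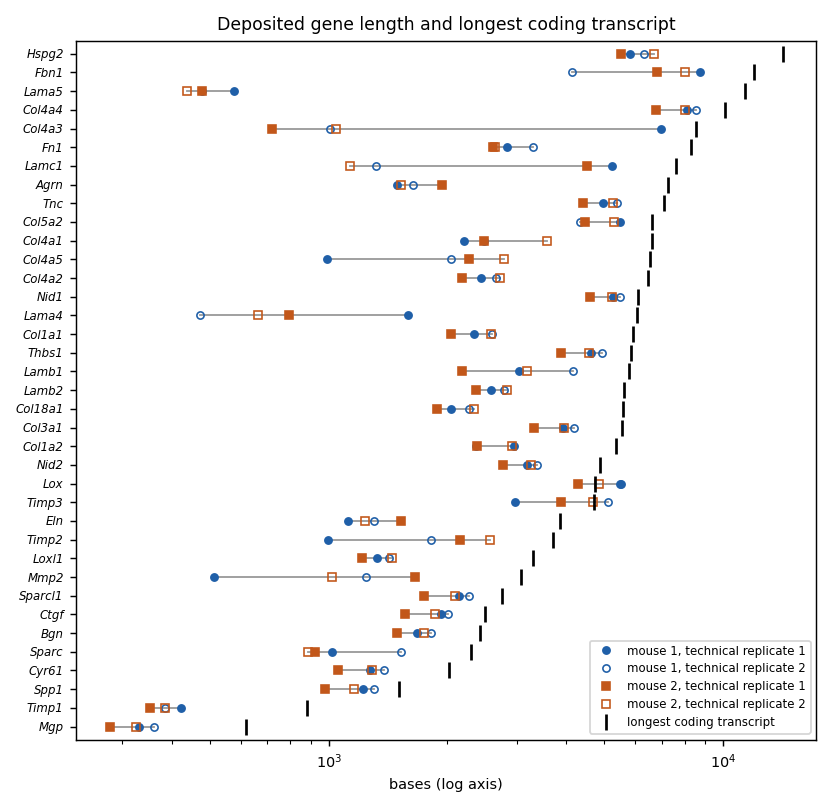
Length in bases that the deposited values assign to each matrix gene with a level of 1 TPM or more, in each library (circles, mouse 1; squares, mouse 2; filled, technical replicate 1; open, technical replicate 2), and the length of its longest coding transcript (black tick), on a log axis and ordered by that transcript; where a gene was at 0 TPM in a library (Lama4, Mmp2, Timp1) its length there is a value filled in by Tximport. Lama5, with 438 to 575 bases against 11388, lies farthest left of its tick, and Col4a3, Lamc1 and Lama4 spread widely between libraries.

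The machinery that makes and receives matrix was read from 4 further lists. Their counts stand beside the 9.74% of all rows, and 16.5% of rows above 0 TPM, present in every library. Of 17 genes of collagen maturation 7 (41.2%) were present, led by Ppib (cyclophilin B, 406, 529, 284 and 176 TPM), P4hb (protein disulphide isomerase, the beta subunit of prolyl 4-hydroxylase, 149, 301, 75.7 and 144 TPM) and Sec31a (a coat protein of vesicles leaving the endoplasmic reticulum, 170, 94.1, 28.2 and 25.9 TPM). These 3 also serve other secreted proteins. Serpinh1, the chaperone HSP47 that is particular to collagen, was present at 41.1, 32.7, 17.8 and 10.5 TPM, with both libraries of mouse 1 above both of mouse 2.

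Of 20 matrix receptors 5 (25.0%) were present: Itgav, Sdc4, Itgb1, Itga7 and Dag1. Itgav, the integrin chain that pairs to bind fibronectin, osteopontin and the CCN proteins, led at 52.5, 47.7, 55.3 and 177 TPM, followed by the syndecan Sdc4 at 16.8, 30.5, 87.0 and 34.9 TPM. Sdc1 came next by level, at 31.4, 37.7, 0.0151 and 19.8 TPM. Itgb1, the partner of most laminin and collagen receptors, stood at 5.51, 15.5, 8.95 and 24.0 TPM, Itga7, a laminin receptor of muscle, at 21.8, 1.11, 15.5 and 15.1 TPM, and Dag1 (dystroglycan) at 2.73, 8.31, 4.91 and 4.03 TPM. Other laminin-binding integrin chains were not present in every library: Itga6 stood at 28.2, 9.26, 35.5 and 0.484 TPM and Itga3 at 0.634, 0.0266, 7.17 and 0.877 TPM.

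Of 33 other structural genes 5 (15.2%) were present, and the highest by level were Ecm1 (271, 453, 89.2 and 221 TPM), Col12a1 (28.2, 102, 0.498 and 30.2 TPM) and Ltbp1 (64.3, 19.0, 21.6 and 12.8 TPM). Ecm1 encodes a secreted glycoprotein that binds perlecan and other matrix proteins, and its level of 259 ± 147 TPM was above that of every one of the 51 genes except Mgp and Spp1, with overlapping ranges for Sparc and Sparcl1. Ltbp1 encodes the protein that anchors latent TGF-beta in the matrix. Of 17 other proteases and inhibitors 2 (11.8%, near the share of all rows) were present, Serpine2 (protease nexin 1, 193, 121, 56.6 and 70.1 TPM) and Adamts1, a versican-cleaving protease at 30.8, 31.0, 3.66 and 6.71 TPM. Plat, tissue plasminogen activator, was second by level at 2.05, 75.0, 0.0734 and 30.1 TPM and not present in every library, and Mmp7 and Mmp9 were at 0 in all 4.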

How the data were processed

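Reads had been trimmed (Trimmomatic 0.36), assigned to GRCm38 transcripts (Salmon 0.7.2) and combined per gene (Tximport 1.2.0), with an Ensembl release not given in the sources used here. From this the authors deposited TPM, estimated counts (scaled from TPM, gene length and library total, not whole reads) and gene lengths. The authors' own mean TPM leaves out mouse 1 technical replicate 1 and was not used for levels. Amplification from few cells without molecular identifiers means that totals do not count molecules, so no counting interval is given.

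Medians, sums, ratios and calls were computed with Python 3.11.15, pandas 2.3.3 and numpy 2.4.6, and drawn with matplotlib 3.10.9. Only the rule for calls between mice was run on simulated data, with random counting noise alone. Genes were not lost from single technical replicates there as they were here, so that run does not measure how reliable these calls are. Coordinates and transcript lengths come from GENCODE M21; Ctgf and Cyr61 were matched as Ccn2 and Ccn1. Distance to Mgp used log2(TPM + 1).

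The members and lists were chosen with earlier results of these data known. Values in every library were given for the highest 4 genes of each role, genes called between mice and 7 fixed pairs, and for the highest 3 of each further list; others named were chosen after their values were seen. Whether technical replicates share cDNA or come from separate portions of the sorted cells is not stated in the sources read. Their spread may therefore include the sampling of cells as well as amplification and sequencing. The SD rests on 2 mice. Alternatives left out each library or mouse, rescaled without mitochondrial genes, and changed the minimum, fold, pseudocount and length. Of the podocyte markers, 1 is not reported here and was left out of their count and sum.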

Additional observations from a re-analysis of the deposited data

Results flagged for a closer look

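In 19 of the 51 genes and in 1 summary value, 1 library lay apart from the other 3 by more than Dixon's 95% critical value for 4 values. Chance flags about 1 in 20 groups of independent normal values, but here 37.7% of the 12301 genes that reached 1 TPM in some library met the same rule, and 13 of 41 such matrix genes (31.7%) did, so a single high library is common in this table.

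In mouse 1 technical replicate 1 the high values were those of Sparcl1 (385 TPM), Timp1 (20.0 TPM), Thbs1 (19.6 TPM), Lox (6.42 TPM), Col4a3 (5.70 TPM), Nid2 (4.11 TPM), Col4a5 (3.07 TPM), Col8a1 (2.68 TPM), Col14a1 (2.08 TPM), Col6a1 (0.204 TPM), Fbln2 (0.146 TPM) and Postn (0.0294 TPM). That is 12 genes in the library with the most genes at 1 TPM (8709) and the one that the deposited mean leaves out. In mouse 1 technical replicate 2 they were Lama4 (30.6 TPM), Mmp2 (14.0 TPM), Fbln5 (3.14 TPM), Fbln1 (0.338 TPM) and Lama2 (0.247 TPM). In mouse 2 technical replicate 1 they were Col4a4 (25.5 TPM) and Col6a3 (0.621 TPM), and none was in mouse 2 technical replicate 2. The values of Col6a1, Fbln1 and Postn rest on 3, 6.28 and 2.00 estimated counts in the high library and on 0 in the rest.

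The summary value was the difference between the medians of basement membrane and interstitial genes, which was lowest, at 0.72 in log2(TPM + 1), in mouse 1 technical replicate 2. The cause of these single values was not tested.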

How the results depend on the processing

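With 2 mice and 1 condition these results carry no test, and the difference of medians kept its sign under every alternative run. The 19 present genes became 41 when 1 library was enough. The 7 present basement membrane genes became 4 per length of the longest coding transcript, 4 at a minimum of 5 TPM, 12 in at least 3 libraries and 15 in at least 1. The 3 present interstitial genes became 1 at 5 TPM, 6 in at least 3 libraries, 11 in at least 1, and 3 to 5 without single libraries or mice. The difference of medians, 1.89, was 2.73 with a pseudocount of 0.1 TPM and 1.24 per length of the longest coding transcript, which also lowered the basement membrane sum from 257 to 133 TPM. Genes higher in mouse 1, 5 as reported, numbered 12 at 2-fold (7.95% of all rows), 9 with a pseudocount of 0.1 (7.83%), 11 from estimated counts scaled to library totals (6.92%) and 5 to 9 without single libraries (4.48% to 7.19%); those higher in mouse 2, 3 as reported, numbered 1 to 6 without single libraries (3.38% to 5.16%). Without mouse 1 technical replicate 1 the counts were 5 and 6, so that more genes were higher in mouse 2. The length alternative was chosen after seeing the data. No paired analysis was possible because the result comes from no test and there is 1 group.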
